A study of Mus musculus with 18 samples.

Results

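Interferon-induced genes and the immunoproteasome were followed in mouse kidneys 3 days after a ureter was tied. Of 40 listed genes, 37 were measured, out of 12393 genes in all. A gene was measured where a probe set, the group of short oligonucleotides on the array that reads one transcript, carries its symbol alone in the platform annotation. Where several did, the probe set with the highest mean log2 level over all arrays was used. The only probe set for Isg15 also carries Gm9706 and is described separately, and Ifi44 and Xaf1 were not analysed here. All mice had the C57BL/6 background and were wild type (WT), TIMP2-/- or TIMP3-/-, that is, without the tissue inhibitor of metalloproteinases 2 or 3. In unilateral ureteral obstruction (UUO) the right ureter was ligated, and sham mice had the operation without ligation. The operated kidney was read on 3 arrays in each of the 6 groups, 18 arrays in all, labelled as biological replicates. The labels do not say how the alleles were made or give ages.

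Interferons are secreted proteins that bind cell-surface receptors and act through JAK kinases and STAT and IRF transcription factors. Type I interferons act mainly through a complex of STAT and IRF9 proteins that binds the interferon-stimulated response element (ISRE), and interferon gamma through STAT dimers at the gamma-activated site (GAS). The induced genes include antiviral effectors, GTPases that attack intracellular vacuoles, and the immunoproteasome, a form of the proteasome with 3 exchanged catalytic subunits that trims peptides for display on MHC class I. In the kidney, tubule cells, endothelium and invading macrophages can all carry this programme.

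The sequences next to the transcription start show how the listed genes differ in the elements they carry. RefSeq windows (GRCm38.p6) running from 250 bases before to 50 after a start were read for 31 of the 37 genes, in 39 windows. The ISRE core was searched as GAAA, any 2 bases and GAAA again, on both strands. The GAS was searched as TTC, any 3 bases and GAA, which reads alike on both strands, and overlapping matches were kept. An ISRE core lay in 15 of the 39 windows (38.5%), against 3.44% of all 32851 windows of that length. A GAS match lay in 10 windows (25.6%), against 8.3% of all windows. By gene, 14 had an ISRE core, 10 a GAS match, 4 both (Bst2, Eif2ak2, Ifitm3 and Igtp) and 11 neither. The genes were listed because interferon induces them, so these shares describe the list, and a match is not a tested binding site. The 6 stretches here are the 160 bases just before the start, 5′ to 3′ on the gene's strand, with matches in capitals. Ifit1, Gbp2 and Irgm1 show the ISRE core, Igtp both elements, Irf1 a GAS match alone and Tap1 neither.
Ifit1 (chr19:34640729-34640888, plus strand): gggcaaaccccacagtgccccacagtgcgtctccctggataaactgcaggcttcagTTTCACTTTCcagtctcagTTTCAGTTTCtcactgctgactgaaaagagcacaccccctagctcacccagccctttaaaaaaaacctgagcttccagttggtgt
Gbp2 (chr3:142620503-142620662, plus strand): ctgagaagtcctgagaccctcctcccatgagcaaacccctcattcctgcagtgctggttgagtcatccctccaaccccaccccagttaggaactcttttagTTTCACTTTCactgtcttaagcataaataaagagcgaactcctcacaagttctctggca
Irgm1 (chr11:48871421-48871580, minus strand): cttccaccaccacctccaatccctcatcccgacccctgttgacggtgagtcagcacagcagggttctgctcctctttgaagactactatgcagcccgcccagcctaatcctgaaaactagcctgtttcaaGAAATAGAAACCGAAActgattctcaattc
Igtp (chr11:58199396-58199555, plus strand): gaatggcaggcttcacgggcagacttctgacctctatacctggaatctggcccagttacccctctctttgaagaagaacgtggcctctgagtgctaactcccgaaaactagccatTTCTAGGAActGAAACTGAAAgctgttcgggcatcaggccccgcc
Irf1 (chr11:53769854-53770013, plus strand): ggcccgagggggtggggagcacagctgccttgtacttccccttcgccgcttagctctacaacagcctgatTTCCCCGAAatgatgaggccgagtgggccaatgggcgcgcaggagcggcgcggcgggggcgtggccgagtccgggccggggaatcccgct
Tap1 (chr17:34187396-34187555, plus strand): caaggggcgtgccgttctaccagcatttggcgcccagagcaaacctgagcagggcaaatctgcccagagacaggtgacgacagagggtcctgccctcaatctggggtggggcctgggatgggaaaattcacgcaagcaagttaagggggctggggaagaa
Tap1 and Psmb9 are read away from each other, and their 300-base windows share 275 bases. Both are therefore described by nearly the same sequence, which holds neither motif as searched.

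Obstruction raised most of these genes in every genotype. A gene was said to rise or fall where limma, fitted to all 12393 genes and 18 arrays, gave an adjusted p (Benjamini-Hochberg) under 0.05. In WT kidneys 29 of the 37 rose and none fell, where 16.8% of all genes rose and 16.2% fell. In TIMP2-/- kidneys 30 rose and none fell (15.9% of all genes rose and 22% fell), and in TIMP3-/- kidneys 34 rose and none fell (25.7% rose and 38.8% fell). The median log2 difference over the 37 genes was 1.26 in WT, 1.19 in TIMP2-/- and 1.16 in TIMP3-/- kidneys, against -0.09, -0.12 and -0.19 over all genes. The 26 genes that passed in all 3 genotypes include each immunoproteasome and peptide-loading gene measured. Ifih1, Ifit2, Ifit3 and Iigp1 passed in both knockouts but not in WT, Stat2 and Ifitm1 in WT and TIMP3-/-, Eif2ak2 and Rsad2 in TIMP3-/- alone, and Ube2l6 in WT alone. Adar and Mx2 passed nowhere in this fit. Under alternatives a few fell: with the arrays centred on their medians Mx2 fell in WT and TIMP2-/- kidneys (-0.50 and -0.47, adjusted p = 0.0182 and 0.0194) and Rsad2 in WT (-0.77, adjusted p = 0.0205), the same 3 calls were made with array weights, and Rsad2 fell in WT without WT sham 1 (-0.82, adjusted p = 0.0303). Several calls were lost on leaving out 1 array, in some cases any of several: without WT UUO 2 the WT calls of Ifit1, Mx1, Irgm1 and Trim30a were lost (adjusted p = 0.119, 0.072, 0.213 and 0.214), without WT sham 3 that of Ifitm1 (adjusted p = 0.0506), without TIMP3-/- UUO 1 the TIMP3-/- calls of Stat2, Ifitm1 and Ifi35 (adjusted p = 0.0556, 0.122 and 0.0882), and without TIMP2-/- sham 3 the TIMP2-/- call of Ifih1 (adjusted p = 0.0543). The TIMP3-/- calls of Stat2 and Ifi35 were also lost without sham 1 (adjusted p = 0.0612 and 0.105) or UUO 3 (adjusted p = 0.056 and 0.102). Without WT sham 3, WT UUO 2 and TIMP3-/- UUO 2, which stand apart as described with the cell markers and single arrays, 24, 34 and 35 of the 37 rose in WT, TIMP2-/- and TIMP3-/- kidneys. No difference of response between genotypes passed its own test in the 37 genes.

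**Figure D1:**
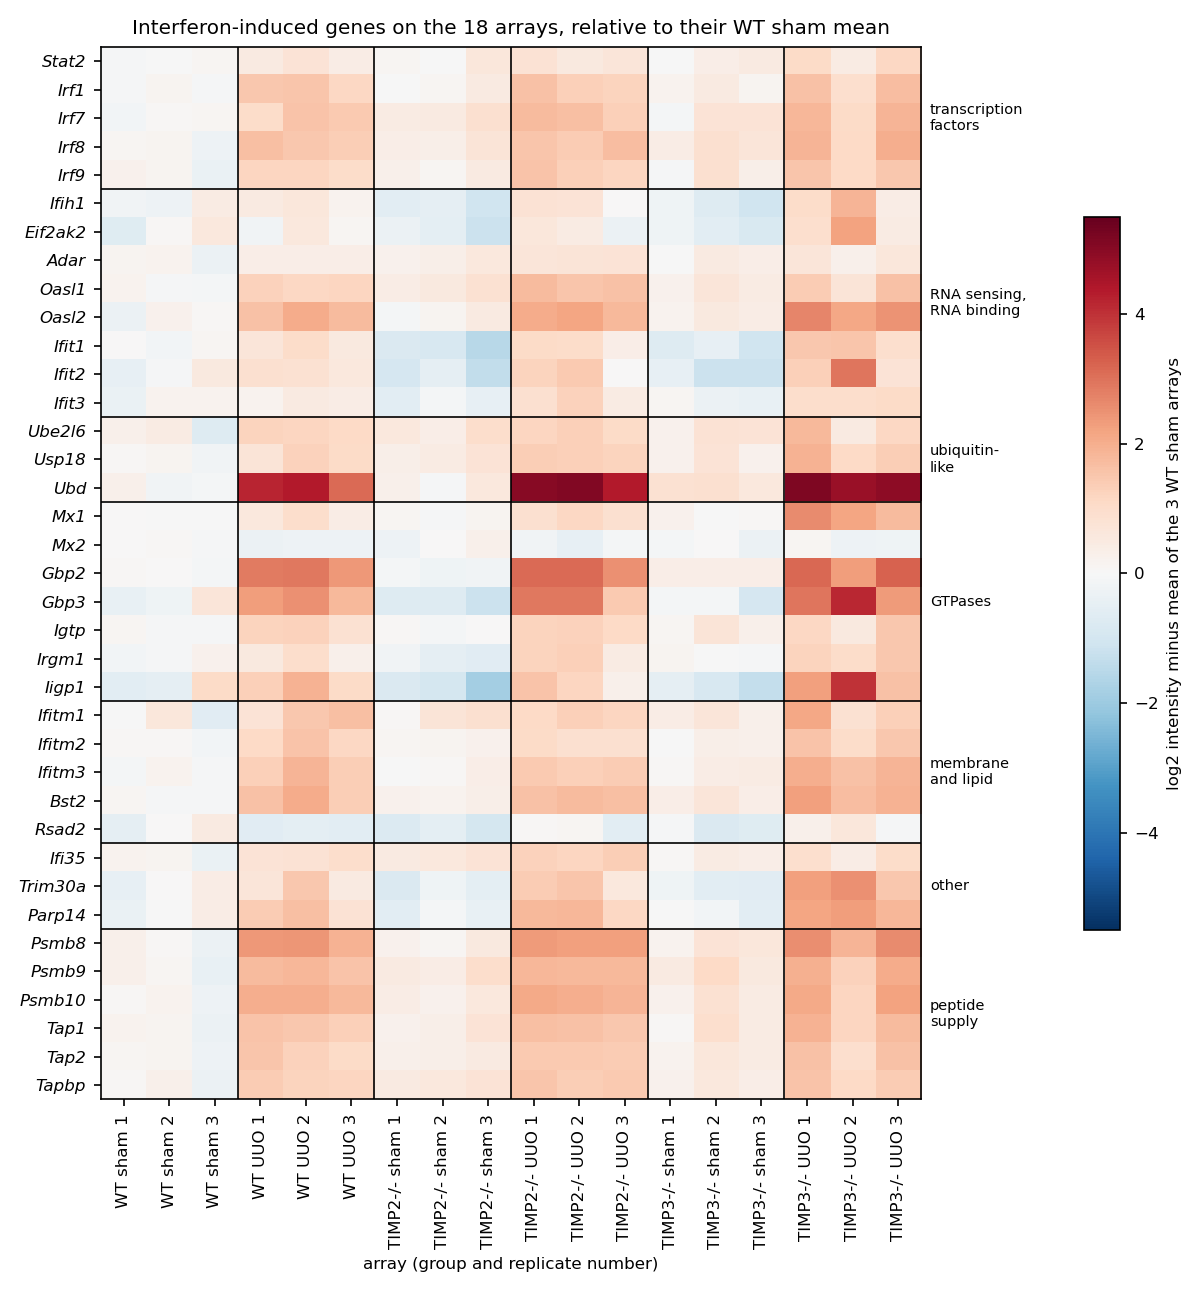
Heat map of the 37 genes (rows, by role) on the 18 arrays (columns, by group and replicate number); colour is the log2 intensity minus the gene's mean over the 3 WT sham arrays. UUO columns are red for most genes, Ubd has the deepest colour, and Mx2 stays near white throughout.

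Markers of several cell types changed at the same time. For scale, 16.8%, 15.9% and 25.7% of all genes rose in WT, TIMP2-/- and TIMP3-/- kidneys, and 16.2%, 22% and 38.8% fell. Of 17 measured macrophage and monocyte markers, 16 rose after UUO in each genotype, and their summed intensity was 6400 to 12140 on sham and 42420 to 93140 on UUO arrays. Of 14 T, B and NK cell markers, 5 rose and 2 fell in WT and in TIMP2-/- kidneys and 3 rose and 5 fell in TIMP3-/- kidneys, and their sum was 1150 to 1632 on sham and 1116 to 1769 on UUO arrays. Of 8 neutrophil markers 2, 0 and 2 rose and 1, 2 and 4 fell in WT, TIMP2-/- and TIMP3-/- kidneys. Of 8 endothelial markers 3, 0 and 3 rose and 1, 2 and 1 fell, and of 17 hepatocyte markers 2, 2 and 0 rose and 2, 2 and 6 fell. Of 5 podocyte markers 2, 1 and 2 rose and 0, 1 and 1 fell, and of 4 adipocyte markers 4, 1 and 4 rose. Of 6 plasmacytoid dendritic cell markers 2, 2 and 4 rose and 1 fell in each genotype; the 2 that rose in WT were Bst2 and Irf8, themselves among the 37 genes. Of 10 markers of the loop, distal tubule and collecting duct 5, 7 and 9 fell. Proximal tubule markers fell, 11, 10 and 11 of 11, from sums of 136100 to 147100 down to 32690 to 91040. Array WT UUO 2 stood out by its hepatocyte markers, whose sum reached 146300 there against at most 49610 on sham arrays; it was also the highest of its group for 27 of the 37 genes (32.5% of all genes). In whole tissue, more cells of a type and more RNA per cell cannot be told apart, and the part of these markers in the results was not tested. Timp3 averaged 49.2 in TIMP3-/- sham against 7500 in WT sham, and Timp2 640 in TIMP2-/- sham against 1179, so both followed the labels, with signal left in the case of Timp2.

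Among the transcription factors, all 5 rose in WT and TIMP3-/- kidneys and 4 of 5 in TIMP2-/- kidneys. Irf8, a myeloid and interferon gamma-responsive factor, had linear intensities of 317, 323 and 239.7 on the WT sham arrays and 916.5, 803 and 737 on WT UUO. It read 369.5, 368.5 and 476 in TIMP2-/- sham and 830.2, 768.5 and 950.4 in TIMP2-/- UUO, and 385, 537 and 467 and 1047, 619 and 1146 in TIMP3-/- kidneys. Every UUO array lay above every sham array, and array TIMP3-/- UUO 2 was the lowest of the UUO arrays. The log2 difference between UUO and sham was 1.49 ± 0.21 in WT, 1.08 ± 0.21 in TIMP2-/- and 0.98 ± 0.21 in TIMP3-/- kidneys (adjusted p = 8.82e-05, 0.00168 and 0.00116), each with the standard error of the fit. Irf1, which is induced by interferon gamma and carries the GAS match shown, went from 708, 811 and 701 to 2061, 2094 and 1603 in WT. TIMP2-/- arrays read 732, 787 and 1030 in sham and 2230, 1816 and 1729 in UUO, and TIMP3-/- arrays 837, 1049 and 809 and 2242, 1412 and 2383. The UUO arrays were again all above the sham arrays, with differences of 1.37 ± 0.20 in WT, 1.19 ± 0.20 in TIMP2-/- and 1.14 ± 0.20 in TIMP3-/- kidneys (adjusted p = 0.000103, 0.000494 and 0.000231). Irf7, which amplifies type I interferon production, read 217, 254.5 and 257 in WT sham and 491, 722 and 656.5 in WT UUO. In the knockouts it was 329, 339 and 448 and 804, 759 and 592 without TIMP2, and 225, 404 and 411 and 855.5, 508 and 894 without TIMP3. Sham and UUO did not overlap, and the differences were 1.35 ± 0.25 in WT, 0.95 ± 0.25 in TIMP2-/- and 1.13 ± 0.25 in TIMP3-/- kidneys (adjusted p = 0.00093, 0.0101 and 0.00159). Irf9, the DNA-binding partner of the type I complex, rose by 0.99 to 1.12. Stat2, another part of that complex, had the smallest differences of the 5 (0.45 to 0.62) and lost its WT call when any one of 5 of the 6 WT arrays was left out (adjusted p up to 0.173). In a limma fit over every probe set, its other probe set rose in each genotype. The differences were 0.59 in WT, 0.59 in TIMP2-/- and 0.74 in TIMP3-/- kidneys (adjusted p = 0.0451, 0.0404 and 0.00705).

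The RNA sensors and RNA-binding effectors were the group least often raised in WT, 3 of 8, against 6 in TIMP2-/- and 7 in TIMP3-/- kidneys. Oasl2, a relative of the oligoadenylate synthetases, read 115.5, 169.6 and 150.3 in WT sham and 442, 594.5 and 481 in WT UUO. Its TIMP2-/- values were 132, 157 and 201 and 586, 643.5 and 492, and its TIMP3-/- values 163, 206 and 190.4 and 928, 632 and 787.5. All UUO arrays exceeded all sham arrays, and the TIMP3-/- UUO arrays also all exceeded the WT UUO arrays. The differences from sham were 1.81 ± 0.20 in WT, 1.82 ± 0.20 in TIMP2-/- and 2.06 ± 0.20 in TIMP3-/- kidneys (adjusted p = 7.01e-06, 9.63e-06 and 1.71e-06). Oasl1, a translational regulator of Irf7, read 137, 116 and 110.4 and then 289, 267 and 276 in WT. It read 159.8, 173 and 215 and 404, 349 and 371 in TIMP2-/-, and 141, 191 and 167 and 319, 199.7 and 365 in TIMP3-/- kidneys. Within each genotype the UUO arrays were higher without overlap, by 1.20 ± 0.19 in WT, 1.05 ± 0.19 in TIMP2-/- and 0.79 ± 0.19 in TIMP3-/- kidneys (adjusted p = 0.000229, 0.00101 and 0.00256).

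Ifit2, which binds viral RNA and limits translation, spread widely within groups. It read 95.1, 121.5 and 184.5 in WT sham and 239.7, 231 and 192 in WT UUO, and 66.95, 90.1 and 50.3 and 297, 345 and 131 in TIMP2-/- sham and UUO. The TIMP3-/- arrays read 93.3, 56.6 and 56.9 in sham and 315, 982.5 and 217 in UUO. UUO lay above sham in each genotype, and array TIMP3-/- UUO 2 was far above the others of its group. The differences were 0.77 ± 0.47 in WT, 1.82 ± 0.47 in TIMP2-/- and 2.60 ± 0.47 in TIMP3-/- kidneys (adjusted p = 0.219, 0.00834 and 0.000297). Its neighbours Ifit1 and Ifit3 rose by 1.90 and 1.24 in TIMP2-/- and by 2.07 and 1.20 in TIMP3-/- kidneys; in WT Ifit1 rose by 0.74 and Ifit3 differed by 0.36 without passing (adjusted p = 0.21). Ifih1, the sensor MDA5 of long double-stranded RNA, differed by 0.44 in WT (adjusted p = 0.336) and rose by 1.24 and 1.79 in the knockouts. Eif2ak2, the kinase PKR that halts translation on double-stranded RNA, rose in TIMP3-/- kidneys by 1.75. Adar, the enzyme that edits double-stranded RNA, read 156, 159 and 113 in WT sham and 179.5, 182 and 179 in WT UUO. It read 168, 178 and 212 and 224, 230.3 and 236 in TIMP2-/-, and 137, 201 and 180.4 and 224, 170.5 and 219.7 in TIMP3-/- kidneys. The TIMP3-/- arrays overlapped, and the differences were 0.36 ± 0.16 in WT, 0.32 ± 0.16 in TIMP2-/- and 0.25 ± 0.16 in TIMP3-/- kidneys (adjusted p = 0.107, 0.138 and 0.185).

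Ubd had the largest difference of the 37 genes in each genotype. Ubd encodes FAT10, a ubiquitin-like protein that interferon gamma and TNF induce and that sends proteins to the proteasome. Its intensities were 58.5, 41.7 and 44.3 in WT sham and 878, 991 and 418 in WT UUO. They were 57.6, 45.5 and 72.2 and 1529, 1606 and 984 in TIMP2-/-, and 84.8, 86.5 and 71.9 and 1653, 1284 and 1424 in TIMP3-/- sham and UUO. Sham arrays were near the dim end of the array, where the 25th percentile of an array was 56.8 to 64.2, and UUO arrays lay far above without overlap. The differences were 3.91 ± 0.28 in WT, 4.55 ± 0.28 in TIMP2-/- and 4.16 ± 0.28 in TIMP3-/- kidneys (adjusted p = 1.59e-07, 4.67e-08 and 8.63e-08). Ube2l6, the conjugating enzyme for ISG15, read 85.1, 95.01 and 42.8 in WT sham and 165.5, 159 and 149 in WT UUO. Its TIMP2-/- values were 104, 90.2 and 136 and 159, 172 and 144, and those of TIMP3-/- 83.8, 121 and 117 and 239, 99.3 and 152.5. In TIMP3-/- kidneys array UUO 2 fell inside the sham range, and the differences were 1.17 ± 0.30 in WT, 0.54 ± 0.30 in TIMP2-/- and 0.53 ± 0.30 in TIMP3-/- kidneys (adjusted p = 0.0084, 0.167 and 0.132). Without that array the TIMP3-/- difference was 0.85 and passed (adjusted p = 0.0277). Usp18, which removes ISG15 from proteins and dampens receptor signalling, read 169, 182 and 140.4 and 264.5, 395 and 342 in WT sham and UUO. It read 202, 221 and 272 and 421, 400.5 and 380.2 in TIMP2-/-, and 190, 272 and 193 and 611, 351 and 420.2 in TIMP3-/- kidneys. Sham and UUO were apart in each genotype, by 1.02 ± 0.21 in WT, 0.80 ± 0.21 in TIMP2-/- and 1.06 ± 0.21 in TIMP3-/- kidneys (adjusted p = 0.00174, 0.00896 and 0.000609).

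The guanylate-binding and immunity-related GTPases assemble on vacuoles that hold pathogens, and with the Mx genes 5 of 7 GTPases rose in WT and 6 in each knockout. Gbp2 read 471, 450.2 and 418 in WT sham and 3232, 3362 and 2299 in WT UUO. It read 417, 374.5 and 386.5 and 3808, 3868 and 2531 in TIMP2-/-, and 569, 576 and 578 and 3921, 2189 and 4253 in TIMP3-/- kidneys. The UUO arrays stood clear of the sham arrays everywhere, by 2.71 ± 0.22 in WT, 3.09 ± 0.22 in TIMP2-/- and 2.53 ± 0.22 in TIMP3-/- kidneys (adjusted p = 6.35e-07, 2.51e-07 and 9.67e-07). Gbp3 values were 65.8, 74.8 and 141 in WT sham, 442, 511 and 307 in WT UUO, 53.9, 54.1 and 39.3 in TIMP2-/- sham and 659, 660.4 and 242 in TIMP2-/- UUO. TIMP3-/- sham read 82.8, 81.3 and 45.97 and TIMP3-/- UUO 674, 1554 and 454. Sham and UUO did not overlap, with WT sham 3 and TIMP3-/- UUO 2 far above the other arrays of their groups and TIMP2-/- UUO 3 far below. The differences were 2.22 ± 0.46 in WT, 3.28 ± 0.46 in TIMP2-/- and 3.53 ± 0.46 in TIMP3-/- kidneys (adjusted p = 0.00173, 0.0001 and 1.7e-05). Iigp1, an immunity-related GTPase, read 107, 111 and 332 in WT sham and 389.7, 599 and 327 in WT UUO. It read 92.1, 81.9 and 43.7 and 464, 359 and 189.6 in TIMP2-/-, and 111, 85.98 and 64.3 and 766, 2470 and 486 in TIMP3-/- kidneys. In WT the highest sham array reached into the UUO range, and the differences were 1.42 ± 0.55 in WT, 2.19 ± 0.55 in TIMP2-/- and 3.52 ± 0.55 in TIMP3-/- kidneys (adjusted p = 0.0599, 0.00756 and 9.78e-05). Without WT sham 3 the WT difference was 1.96 and passed (adjusted p = 0.0192). Igtp rose by 0.70 to 1.21 and Irgm1, a regulator of the other immunity-related GTPases, by 0.60 to 1.43.

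The Mx genes differed in their values. Mx1, a nuclear dynamin-like GTPase active against influenza in mice that carry an intact allele, which C57BL/6 mice do not, read 32.9, 32.2 and 32.2 in WT sham and 48.8, 62.8 and 42.96 in WT UUO. It read 35.1, 31.02 and 36.2 and 59.1, 72.2 and 60.4 in TIMP2-/-, and 37.7, 32.1 and 33.9 and 194, 144.5 and 109.8 in TIMP3-/- kidneys. All sham arrays and 2 of the 3 WT UUO arrays lay under the lowest 25th percentile of an array, and the TIMP3-/- UUO arrays lay above every other array. The differences were 0.65 ± 0.18 in WT, 0.90 ± 0.18 in TIMP2-/- and 2.08 ± 0.18 in TIMP3-/- kidneys (adjusted p = 0.0122, 0.00187 and 9e-07), sizes that are inexact because the lower group lies near the dim end. Mx2 read 113, 114 and 105 in WT sham and 87.1, 90.6 and 89.7 in WT UUO. It read 91.7, 111 and 134 and 96.1, 81.2 and 102 in TIMP2-/-, and 101, 114 and 88.9 and 118, 91.3 and 92.9 in TIMP3-/- kidneys. WT UUO arrays were below WT sham arrays, the knockout groups overlapped, and the differences were -0.31 ± 0.15 in WT, -0.26 ± 0.15 in TIMP2-/- and -0.01 ± 0.15 in TIMP3-/- kidneys (adjusted p = 0.124, 0.175 and 0.946).

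Of the membrane and lipid effectors, 4 of 5 rose in WT, 3 in TIMP2-/- and 5 in TIMP3-/- kidneys. Bst2, the tethering protein tetherin, read 463, 410.2 and 402 in WT sham and 1278, 1747 and 1075 in WT UUO. It read 497, 479 and 524 and 1295, 1431 and 1322 in TIMP2-/-, and 552, 667 and 551 and 2015, 1393 and 1606 in TIMP3-/- kidneys. All UUO arrays were above all sham arrays, by 1.66 ± 0.17 in WT, 1.43 ± 0.17 in TIMP2-/- and 1.49 ± 0.17 in TIMP3-/- kidneys (adjusted p = 3.42e-06, 2.02e-05 and 5.62e-06). Ifitm3, which blocks viral fusion in endosomes, read 2636, 3265 and 2716 in WT sham, 7185, 10397 and 7220 in WT UUO, 2799, 3019 and 3672 in TIMP2-/- sham and 7660, 7157 and 7432 in TIMP2-/- UUO. TIMP3-/- sham was 2987, 3774 and 3949 and TIMP3-/- UUO 11544, 8692 and 10338. There was no overlap, and the differences were 1.51 ± 0.17 in WT, 1.24 ± 0.17 in TIMP2-/- and 1.51 ± 0.17 in TIMP3-/- kidneys (adjusted p = 9.52e-06, 8.89e-05 and 5.49e-06). Ifitm1, its relative at the cell surface, read 587.5, 923 and 388 and 1011, 1640 and 1869 in WT sham and UUO. It read 615, 963 and 1087 and 1280, 1492 and 1343 in TIMP2-/-, and 799, 944 and 728 and 2566, 1068 and 1488 in TIMP3-/- kidneys. UUO was above sham in each genotype but close to it, at 1.29 ± 0.34 in WT, 0.66 ± 0.34 in TIMP2-/- and 0.96 ± 0.34 in TIMP3-/- kidneys (adjusted p = 0.00881, 0.131 and 0.022). Rsad2, the radical-SAM enzyme viperin, rose in TIMP3-/- kidneys by 0.78, a call lost without TIMP3-/- sham 2, sham 3 or UUO 2 (adjusted p = 0.0676, 0.0567 and 0.0715). Its 2 other probe sets did not rise there, at 0.06 and 0.58 (adjusted p = 0.804 and 0.0911), and the mean of its probe sets gave 0.47 (adjusted p = 0.0948). Its WT difference was -0.58 (adjusted p = 0.0923).

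The 3 other induced genes that were measured rose in each genotype. Parp14, an ADP-ribosyltransferase, read 120.5, 156 and 206 in WT sham and 409, 499 and 274 in WT UUO. It read 105, 144 and 119 and 540.1, 559 and 343 in TIMP2-/-, and 156, 142 and 105 and 709, 764 and 556 in TIMP3-/- kidneys. UUO and sham were apart, by 1.28 ± 0.26 in WT, 1.95 ± 0.26 in TIMP2-/- and 2.34 ± 0.26 in TIMP3-/- kidneys (adjusted p = 0.0015, 6.95e-05 and 5.12e-06). Trim30a, a tripartite-motif protein that restrains Toll-like receptor signalling, read 97.6, 138 and 179.9 and 215, 372 and 190.4 in WT sham and UUO. It read 76.8, 113 and 92.2 and 354, 382.5 and 203 in TIMP2-/-, and 113, 89.8 and 87.7 and 639, 774 and 379.7 in TIMP3-/- kidneys. The lowest WT UUO array was only just above the highest WT sham array, and the differences were 0.89 ± 0.32 in WT, 1.70 ± 0.32 in TIMP2-/- and 2.57 ± 0.32 in TIMP3-/- kidneys (adjusted p = 0.0449, 0.00122 and 1.27e-05). Ifi35, a leucine-zipper protein, read 502, 484 and 334 in WT sham and 739, 751 and 842.5 in WT UUO. It read 614, 639 and 730.4 and 1031, 972 and 1108 in TIMP2-/-, and 449, 594 and 558 and 824, 572 and 880.2 in TIMP3-/- kidneys. Sham and UUO overlapped in TIMP3-/- kidneys through array UUO 2, and the differences were 0.84 ± 0.18 in WT, 0.65 ± 0.18 in TIMP2-/- and 0.49 ± 0.18 in TIMP3-/- kidneys (adjusted p = 0.00234, 0.0122 and 0.0265).

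**Figure D2:**
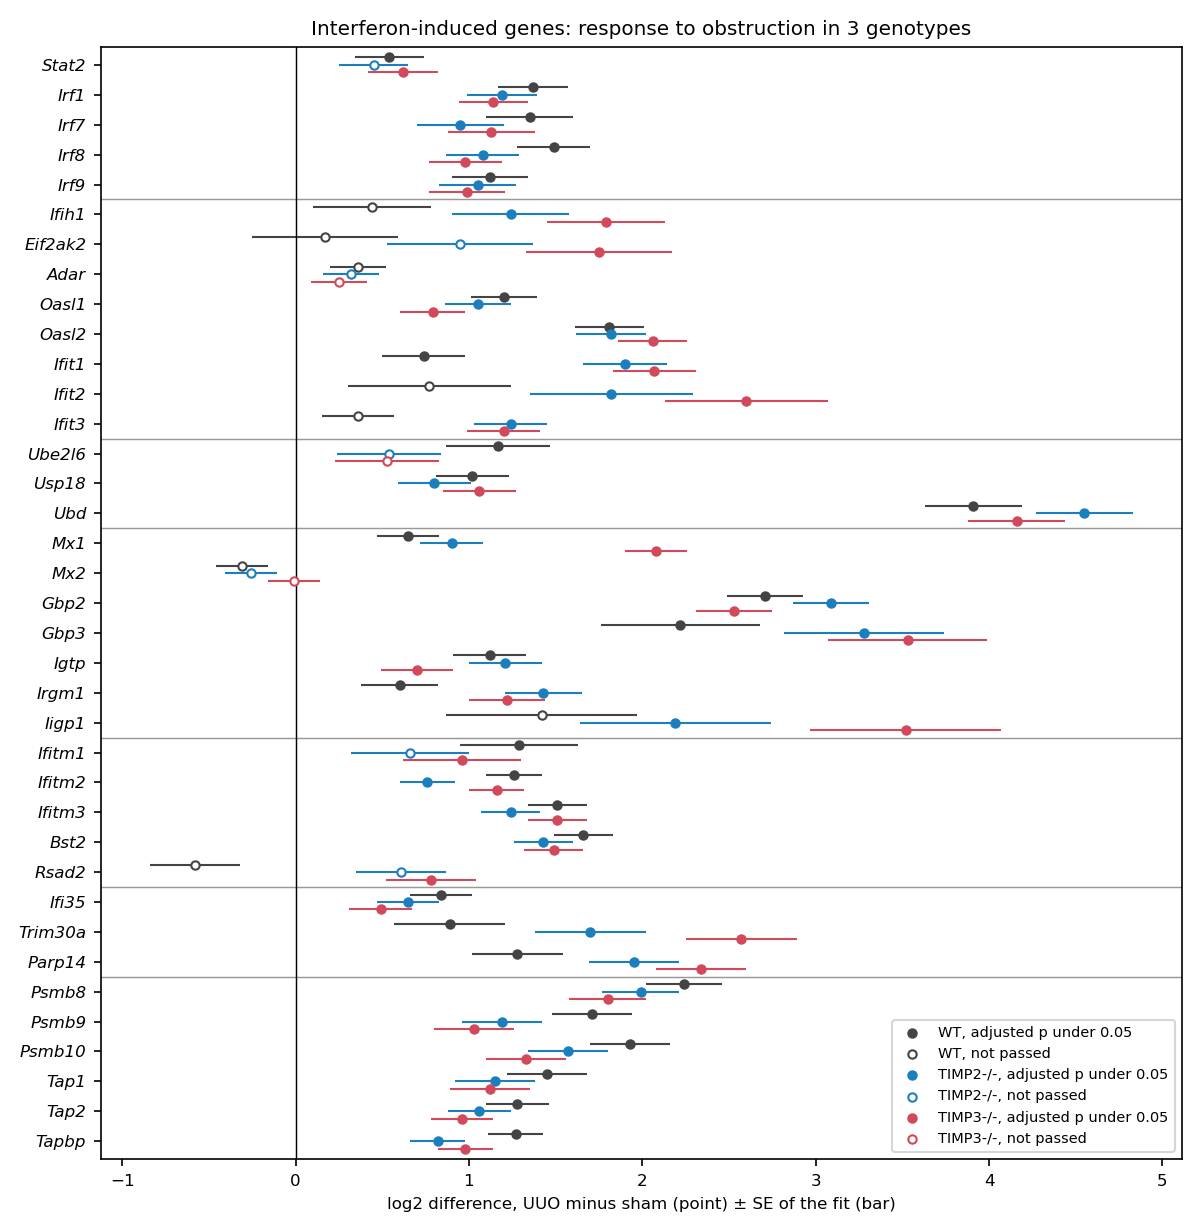
Log2 difference between UUO and sham (x axis; point, with the standard error of the fit as a bar) for each of the 37 genes (y axis, by role) in WT, TIMP2-/- and TIMP3-/- kidneys; filled points have an adjusted p under 0.05 in limma. Ubd reaches 3.91 to 4.55, the peptide-supply genes lie between 0.82 and 2.24, and the genotypes lie farthest apart for genes such as Iigp1, Trim30a and Mx1.

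All 6 immunoproteasome and peptide-loading genes rose in all 3 genotypes by the probe set used for each. Tapbp has 2 probe sets and Tap1 has 4, while the others have 1 each, so that a mean of probe sets changes nothing for them. As the mean of its probe sets Tapbp rose in each genotype, and Tap1 did not. Psmb8 and Psmb10 had the largest differences among them in each genotype. Psmb8 (LMP7) read 641, 553 and 428 in WT sham and 2767, 2855 and 2035 in WT UUO. It read 627, 569.8 and 769 and 2700, 2554 and 2513 in TIMP2-/-, and 616, 900.3 and 810.4 and 3099, 1926 and 3199 in TIMP3-/- kidneys. Every UUO array was above every sham array, with TIMP3-/- UUO 2 the lowest of the UUO arrays, and the differences were 2.24 ± 0.22 in WT, 1.99 ± 0.22 in TIMP2-/- and 1.80 ± 0.22 in TIMP3-/- kidneys (adjusted p = 2.26e-06, 1.03e-05 and 8.94e-06). Psmb10 (MECL-1) went from 721, 776 and 561.5 to 2752, 2676 and 2359 in WT. It read 896, 804 and 1025 and 2880, 2688 and 2495 in TIMP2-/-, and 799, 1216 and 926 and 2903, 1562 and 3121 in TIMP3-/- kidneys. The same array was again lowest after UUO, still above all sham arrays, and the differences were 1.93 ± 0.23 in WT, 1.57 ± 0.23 in TIMP2-/- and 1.33 ± 0.23 in TIMP3-/- kidneys (adjusted p = 1.47e-05, 0.000136 and 0.000189). Psmb9 (LMP2) read 418, 369 and 257 in WT sham and 1138, 1209 and 1017 in WT UUO. It read 475, 454.5 and 662 and 1226, 1160 and 1189 in TIMP2-/-, and 480, 738 and 501 and 1326, 827 and 1391 in TIMP3-/- kidneys. Sham and UUO stayed apart, by 1.71 ± 0.23 in WT, 1.19 ± 0.23 in TIMP2-/- and 1.03 ± 0.23 in TIMP3-/- kidneys (adjusted p = 4.92e-05, 0.00144 and 0.00139). The peptide pump genes Tap1 and Tap2 rose by 0.96 to 1.45, and Tapbp, which joins the pump to MHC class I, by 0.82 to 1.27. The call of Tap1 rests on 1 of its 4 probe sets. The other 3 did not rise in any genotype, and 2 of them fell in TIMP3-/- kidneys, by 0.68 and 0.54 (adjusted p = 0.00225 and 0.00315). The probe set that fell by 0.68 read 74.84 to 159.9 over all arrays. The one that fell by 0.54 read 14.09 to 24.08, and the remaining one 12.45 to 16.34. Both lay under the lowest 25th percentile of an array (56.8), where changes are hard to see. As the mean of the 4, Tap1 differed by 0.20, 0.06 and -0.06 in WT, TIMP2-/- and TIMP3-/- kidneys and passed in none (adjusted p = 0.208, 0.688 and 0.678).

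The subunits that the immunosubunits replace did not rise with them. Psmb5, Psmb6 and Psmb7 differed by 0.03, 0.15 and -0.41 in WT kidneys and by -0.14, -0.10 and -0.18 in TIMP2-/- kidneys without passing, and in TIMP3-/- kidneys Psmb5 fell by 0.46 and Psmb7 fell by 0.78. Within an array, the log2 ratio of Psmb8 to Psmb5 was higher by 2.21, 2.13 and 2.26 after UUO in WT, TIMP2-/- and TIMP3-/- kidneys. The ratio of Psmb9 to Psmb6 was higher by 1.56, 1.28 and 1.32, and that of Psmb10 to Psmb7 by 2.34, 1.75 and 2.11. In each of these 9 comparisons the UUO arrays were all above the sham arrays (exact two-sided permutation p = 0.1, the smallest that 3 against 3 arrays can give). Among the rest of the proteasome, 2, 6 and 5 of 12 other 20S subunits rose in WT, TIMP2-/- and TIMP3-/- kidneys and none fell. Of 17 subunits of the 19S cap 1, 4 and 1 rose and 0, 1 and 1 fell. Over all genes, 16.8%, 15.9% and 25.7% rose and 16.2%, 22% and 38.8% fell. The WT counts of risen 20S and 19S subunits were not above that share. Psme1, a subunit of the interferon gamma-inducible PA28 activator, rose by 1.03, 0.76 and 0.66 in the 3 genotypes. Psme3, the other gene measured of that family of activators, fell in WT and TIMP3-/- kidneys (-0.31 and -0.32, adjusted p = 0.034 and 0.0155) and was at 0.01 in TIMP2-/- kidneys.

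**Figure D3:**
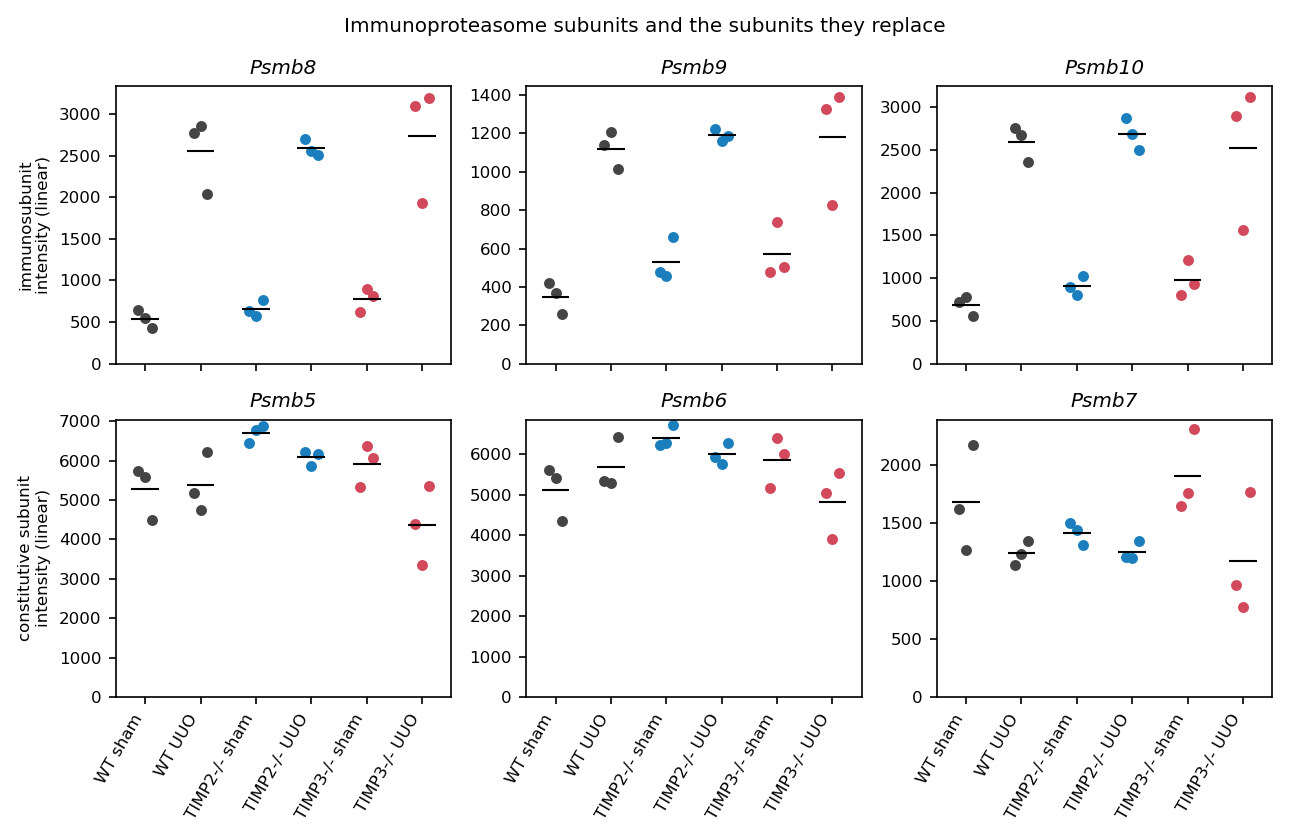
Linear intensity (y axis, from 0) of Psmb8, Psmb9 and Psmb10 (top) and of the constitutive subunits Psmb5, Psmb6 and Psmb7 (bottom) on each array, by group (x axis); points are arrays and bars are group means of 3. The top panels separate sham from UUO in each genotype, the bottom panels do not show such a rise, and scales differ between panels because levels of different probe sets cannot be compared.

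Other genes of the pathway were counted from lists of their own. Beside these counts, 16.8%, 15.9% and 25.7% of all genes rose in WT, TIMP2-/- and TIMP3-/- kidneys, and 16.2%, 22% and 38.8% fell. Of 9 measured interferon ligand genes none rose, while 3 fell in WT, 3 in TIMP2-/- and 7 in TIMP3-/- kidneys, all at intensities under the array medians. Among 15 genes of the receptors and of JAK-STAT signalling, 9, 10 and 11 rose in WT, TIMP2-/- and TIMP3-/- kidneys and none fell. Socs3, a feedback inhibitor of cytokine receptors, rose by 4.22 in WT, and the interferon gamma receptor genes Ifngr1 and Ifngr2 by 1.27 and 1.37. Of 15 nucleic acid sensors and adaptors 5, 6 and 9 rose, and 3 fell in TIMP3-/- kidneys; Sting1, the adaptor of the cytosolic DNA sensor, rose by 2.04 in WT. Of 31 further interferon-induced genes 14, 18 and 21 rose, among them the chemokine genes Cxcl10 (2.31 in WT) and Cxcl9 (1.64). Of 9 MHC class I and peptide-trimming genes 5, 6 and 7 rose, with H2-K1 at 1.31, H2-D1 at 1.30 and B2m at 1.18 in WT.

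Between genotypes, 1 of the 37 genes differed in obstructed kidneys. That gene was Mx1, higher in TIMP3-/- than in WT UUO by 1.52 ± 0.18 on the log2 scale (95% interval 1.13 to 1.90, adjusted p = 0.00248) and higher than in TIMP2-/- UUO by 1.19 ± 0.18 (adjusted p = 0.00584). All genes passed at a rate of 0.395% in the first comparison and 8.08% in the second. Neither call held with only the arrays compared in the fit (adjusted p = 0.523 and 0.0772). Over 17 alternatives the Mx1 difference from WT ranged from 1.31 to 1.80, with adjusted p from 2.6e-05 to 0.523, and that from TIMP2-/- from 0.98 to 1.43, with adjusted p from 0.000151 to 0.0772. Cell markers were also compared between these groups. All 17 macrophage and monocyte markers had positive and all 11 proximal tubule markers negative differences between TIMP3-/- and WT UUO (medians 0.43 and -0.76), none of which passed. Against TIMP2-/- UUO, 8 of the 11 proximal tubule markers passed as lower (median -1.13) and none of the macrophage markers passed (median 0.51). The summed macrophage markers were 42420 to 76470 in WT, 51120 to 51380 in TIMP2-/- and 63140 to 93140 in TIMP3-/- UUO, and the summed proximal tubule markers 39930 to 86640, 65140 to 91040 and 32690 to 44110. Their part in the Mx1 difference was not tested. The median over the 37 genes was 0.25 for TIMP3-/- against WT UUO and 0.14 against TIMP2-/- UUO, where all genes had -0.07 and -0.11. At an unadjusted p under 0.05, 11 were higher and none lower in TIMP3-/- than in WT UUO (8.12% of all genes were higher and 12.5% lower), namely Eif2ak2, Oasl2, Ifit1, Ifit3, Ubd, Mx1, Irgm1, Iigp1, Rsad2, Trim30a and Parp14. Trim30a differed by 1.21 ± 0.32 (interval 0.52 to 1.89, adjusted p = 0.101) and Ubd by 1.02 ± 0.28 (interval 0.42 to 1.62, adjusted p = 0.11). In a limma fit over every probe set, a probe set annotated to both Trim30d and Trim30a differed by 1.26 (adjusted p = 0.039). From TIMP2-/- UUO it differed by 0.92 (adjusted p = 0.0478). Its WT UUO arrays read 42.94 to 73.44, near the dim end. The other probe set of Trim30a alone differed by 1.12 and 1.35 without passing (adjusted p = 0.182 and 0.0659). Against TIMP2-/- UUO, 7 of the 37 genes were higher (Eif2ak2, Oasl2, Mx1, Iigp1, Ifitm2, Ifitm3 and Trim30a) and Ifi35 lower at an unadjusted p under 0.05 (10.9% of all genes were higher and 20.6% lower). The number that passed the adjusted test against WT UUO depended on single arrays: it was 6 without WT UUO 2 (Oasl2, Ubd, Mx1, Irgm1, Trim30a and Parp14) and 5 without TIMP3-/- UUO 3 (Eif2ak2, Mx1, Rsad2, Trim30a and Parp14). Shares of all genes that passed with those arrays left out are not given here.

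Between TIMP2-/- UUO and WT UUO none of the 37 genes passed by limma's adjusted p, at a median of 0.13 (0.04 over all genes; 0.0242% of all genes passed). At an unadjusted p under 0.05, 5 genes, Adar, Oasl1, Ifit3, Ubd and Ifi35, were higher and none lower (2.11% of all genes were higher and 1.22% lower). Their intervals leave sizeable differences possible: that of Ubd ran from 0.31 to 1.51 around 0.91, and that of Iigp1 from -1.60 to 0.75 around -0.43. Among the immunosubunits after UUO, Psmb8 was at 0.04 (interval -0.42 to 0.49) for TIMP2-/- and 0.08 (interval -0.38 to 0.54) for TIMP3-/- against WT. In sham kidneys none of the 37 passed in either knockout (0.00807% and 0.0161% of all genes passed). At an unadjusted p under 0.05, 8 were higher and 4 lower in TIMP2-/- sham (15.5% and 12.4% of all genes) and 9 higher and 1 lower in TIMP3-/- sham (4.56% and 5.88%). Ifit1 was on the lower side in both, at -1.08 and -0.76 (adjusted p = 0.131 and 0.476); both comparisons share the WT sham arrays.

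**Figure D4:**
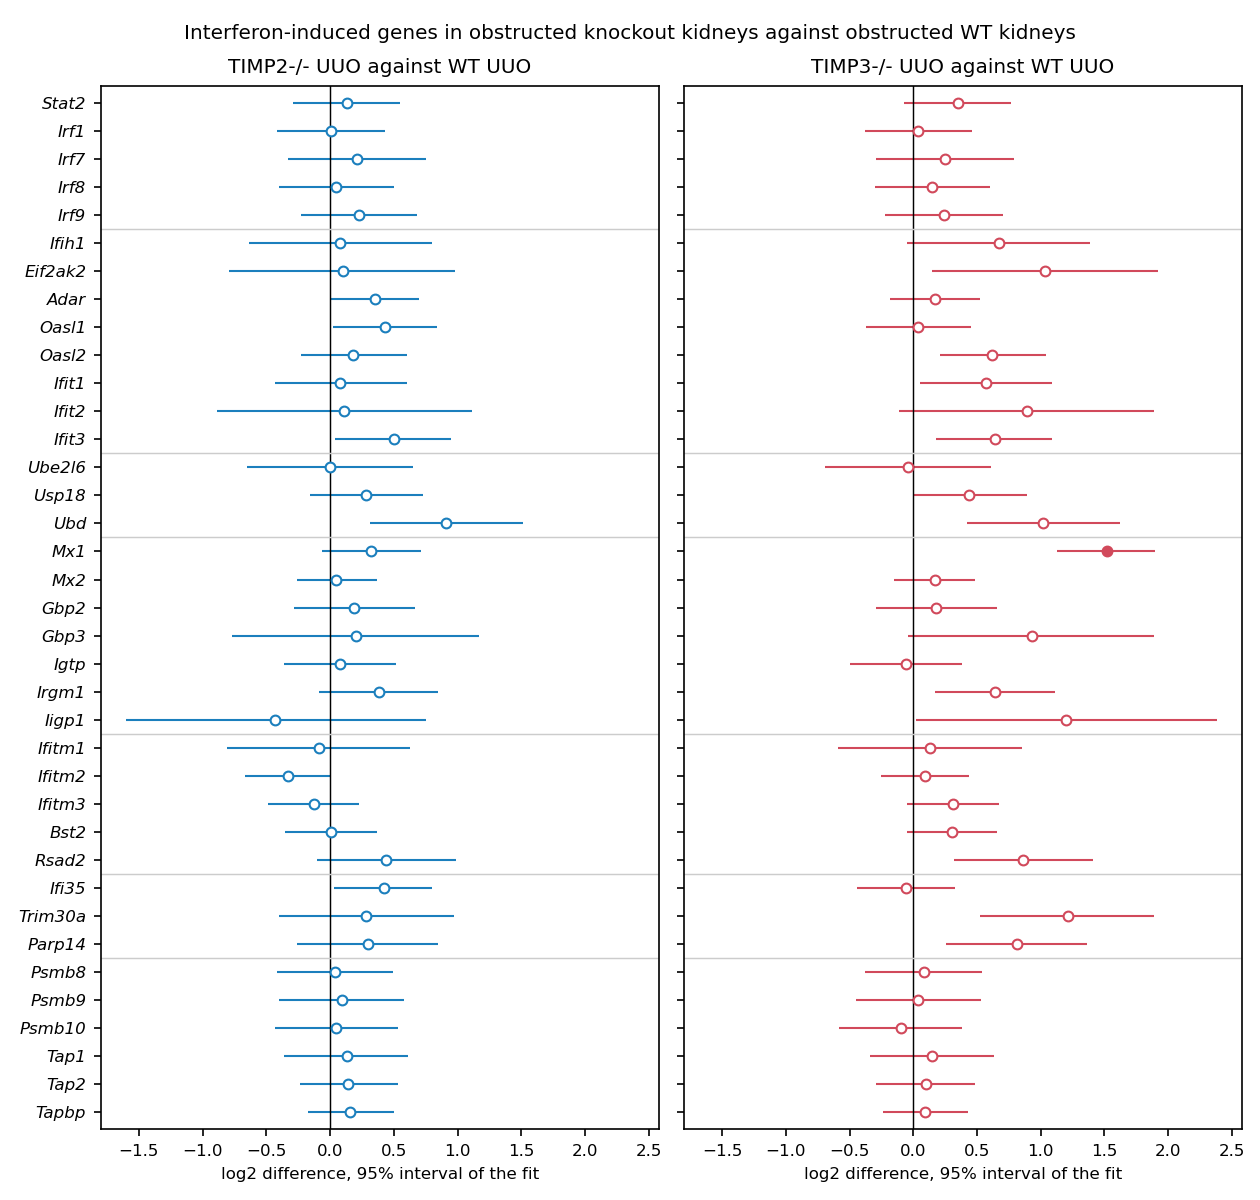
Log2 difference of TIMP2-/- UUO (left) and TIMP3-/- UUO (right) from WT UUO (x axis) for each of the 37 genes (y axis), with the 95% interval of the fit as a line; filled points have an adjusted p under 0.05. Mx1 at 1.52 on the right is the one filled point, and the interval lies widely around Iigp1, Ifit2, Gbp3 and Eif2ak2.

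The response to obstruction itself was compared between genotypes, and none of the 37 genes passed by limma's adjusted p. No gene passed for TIMP2-/- or for TIMP3-/- against WT (0% of all genes in both), and 0.00807% of all genes passed for TIMP3-/- against TIMP2-/-. The smallest adjusted p among the 37 was 0.518, 0.163 and 0.207 in these comparisons. At an unadjusted p under 0.05, 10 genes had a larger response in TIMP3-/- than in WT kidneys and none a smaller one, where 11.3% of all genes had a larger and 15.4% a smaller one. In TIMP2-/- kidneys 4 had a larger and 1 a smaller response than in WT (5.53% and 4.03% of all genes). The 10 were Ifih1, Eif2ak2, Ifit1, Ifit2, Ifit3, Mx1, Iigp1, Rsad2, Trim30a and Parp14. The difference for Iigp1 was 2.09 ± 0.78 and for Mx1 1.43 ± 0.26 (both adjusted p = 0.163). Without TIMP3-/- UUO 3, 6 of the 10 passed: Ifih1, Ifit1, Ifit2, Mx1, Rsad2 and Trim30a. Mx1 had a limma adjusted p of 0.0232 there, and each of the others 0.0497, just under the threshold. The share of all genes that passed in that fit is not given here.

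Many of these genes moved with single arrays. On WT sham 3 and also on TIMP3-/- UUO 2, 9 genes were the highest of their group: Eif2ak2, Gbp3, Ifih1, Ifit1, Ifit2, Iigp1, Parp14, Rsad2 and Trim30a (24.3% of the 37; 15.9% of all genes). The same 9 were all the lowest of their group on TIMP2-/- UUO 3 (31.9% of all genes). Another 19, the immunoproteasome and peptide-loading genes among them, were the lowest of their group on both WT sham 3 and TIMP3-/- UUO 2 (37.6% of all genes). Of these, 18 were the highest on TIMP2-/- sham 3 (50.5% of all genes). The shares for the TIMP2-/- arrays are over all genes, not over genes with the same ranks on WT sham 3 and TIMP3-/- UUO 2. A share of that kind was not worked out. Over all genes, deviations from the group mean on TIMP2-/- sham 3 and on WT sham 3 were correlated at -0.613. The ratio of 3′ to 5′ probe sets for Actb, a measure of transcript integrity, was 1.52 and 1.40 on WT sham 3 and TIMP3-/- UUO 2, within 1.24 to 1.52 over all arrays. That for Gapdh was 0.944 and 0.994, the latter the highest of 0.908 to 0.994 over all arrays. Leaving out WT sham 3, TIMP3-/- UUO 2 and WT UUO 2 together, the difference of response between TIMP3-/- and WT was 1.13 for Iigp1, 0.99 for Eif2ak2, 0.97 for Ifit2, 1.55 for Trim30a and 1.59 for Mx1 (adjusted p = 0.265 to 0.392). The part of these arrays in the genotype differences beyond that was not tested.

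**Figure D5:**
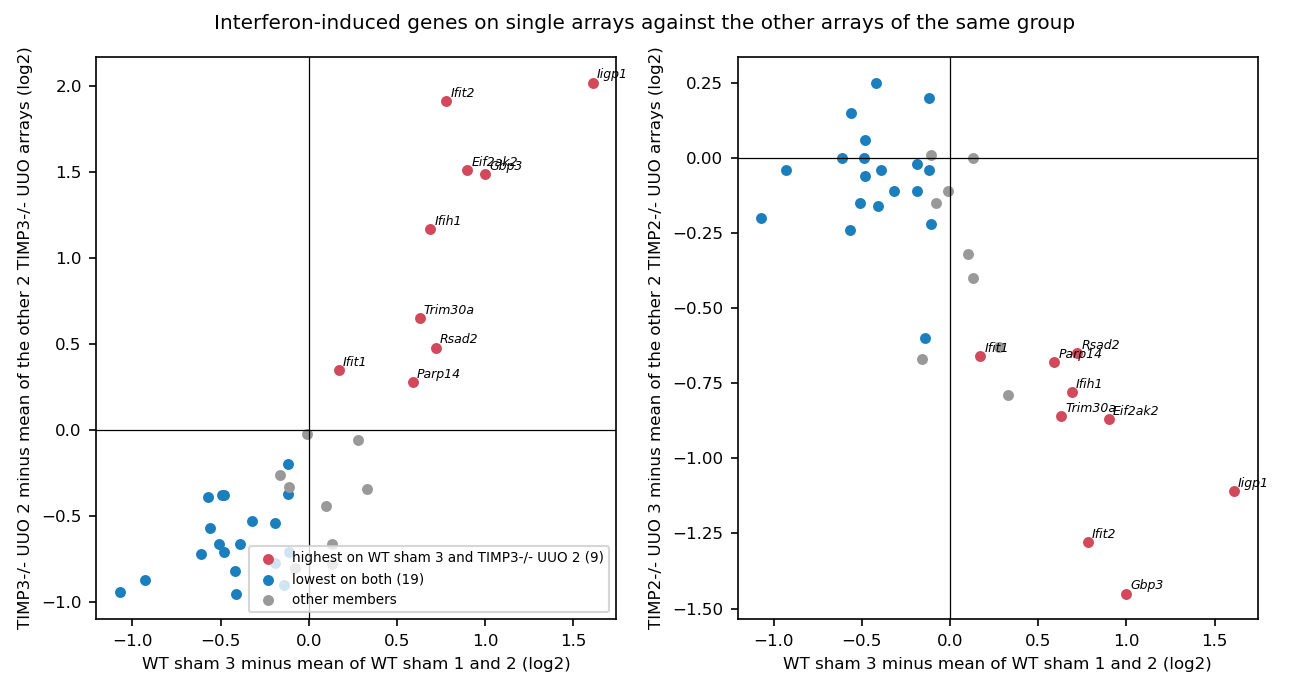
Deviation of each of the 37 genes on WT sham 3 from the mean of the other 2 WT sham arrays (x axis, log2) against its deviation on TIMP3-/- UUO 2 (left) or TIMP2-/- UUO 3 (right) from the other 2 arrays of that group (y axis, log2). The 9 named genes lie at the upper right on the left and at the lower right on the right; the 19 genes lowest on both arrays lie at the lower left on the left.

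The promoter elements can be set beside these values. The 14 genes with an ISRE core had a median log2 difference of 0.82 in WT, 1.24 in TIMP2-/- and 1.5 in TIMP3-/- kidneys, and the 17 without one had 1.35, 1.08 and 1.03. Of the 9 genes that were highest on both single arrays, those with an ISRE core in a window are Eif2ak2, Gbp3, Ifih1, Ifit1, Rsad2 and Trim30a. Ifit2 had a GAS match and no core in its window, and the windows of Iigp1 and Parp14 were not used here. The peptide-supply genes had no core in the windows read, and a GAS match was found for Psmb8. These are descriptions of short windows, without a test, on genes chosen by what is known of them.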

How the data were processed

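RNA from whole ipsilateral kidneys was hybridised to Affymetrix Mouse430A_2 arrays. The authors summarised probe sets by RMA, per the submitters' processing notes, and deposited a linear intensity for each probe set. Values were taken to log2 without further normalization. Of 22690 probe sets, 64 controls were left out; 20380 carry 1 symbol, 691 several and 1555 none, and the first gave 12393 genes. Array medians were 201 to 247, and no depth applies beyond the number of arrays.

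Differences were fitted with limma 3.58.1 (R 4.3.3) as means of 6 groups over 18 arrays (12 residual degrees of freedom), in 11 comparisons, with Benjamini-Hochberg adjustment over all genes of each and a threshold of 0.05. The script was tested on simulated data. For ratios within an array, an exact permutation test was used. The listed genes, the pathway and marker lists and 3 arrays left out in one alternative were chosen with earlier results of these data known. Values on every array are given for the 3 genes of each role with the largest WT difference, for Mx1, which passed a genotype comparison, and for genes that passed nowhere. The chosen probe set of 12 genes, Gbp2, Gbp3 and Mx1 among them, has a suffix that marks possible matches to several transcripts. The suffix is _x_at for Gbp2 and _a_at for Gbp3 and Mx1. Signal may be shared between transcripts there, and whether any of these belong to other genes was not worked out. The chosen probe sets of the Ifit and Ifitm genes have no such suffix. Replicate numbers are shared between groups, and same-numbered arrays deviated together in TIMP2-/- UUO and sham (correlations of 0.328, 0.321 and 0.575) and in TIMP2-/- and WT UUO (0.209, 0.257 and 0.445), not in all pairs of the other comparisons. Fitted on those 6 arrays alone with the replicate block, Stat2, Eif2ak2, Adar, Ube2l6, Ifitm1 and Rsad2 passed too in TIMP2-/- UUO against sham, 36 genes in all.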

Additional observations from a re-analysis of the deposited data

Results flagged for a closer look

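Rsad2 (viperin) lay on opposite sides of its sham level after obstruction in WT and TIMP3-/- kidneys. It read 819, 1149 and 1593 in WT sham and 743, 782 and 771.5 in WT UUO, so all WT UUO arrays were below all WT sham arrays. It read 1104, 664 and 722 in TIMP3-/- sham and 1398, 1743 and 1110 in TIMP3-/- UUO, where all UUO arrays were above all sham arrays. This holds for the probe set used. On one other, TIMP3-/- sham read 391, 269.7 and 296.7 and UUO 329, 341 and 315, which overlap, with differences of 0.06 in TIMP3-/- (adjusted p = 0.804) and -0.66 in WT kidneys (adjusted p = 0.0225), and on the other the differences were 0.58 and -0.53 (adjusted p = 0.0911 and 0.174). The response was larger in TIMP3-/- kidneys by 1.37 on the log2 scale, and limma's test of that difference did not pass (adjusted p = 0.163).

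The probe set annotated to both Isg15 and Gm9706 was outside the comparisons because its signal cannot be given to 1 gene. It was 158 to 247 on sham and 446 to 1133 on UUO arrays. In a limma fit over every probe set it was higher after UUO by 1.52 in WT (adjusted p = 1.46e-05), 1.62 in TIMP2-/- (adjusted p = 1.17e-05) and 2.02 in TIMP3-/- kidneys (adjusted p = 1.03e-06). Isg15 encodes a ubiquitin-like interferon-induced modifier. In TIMP3-/- UUO the probe set was higher than in WT UUO by 0.81 (adjusted p = 0.0435).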

How the results depend on the processing

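Over 18 alternatives the number of genes that rose after UUO was 19 to 31 in WT, 21 to 36 in TIMP2-/- and 25 to 35 in TIMP3-/- kidneys. All alternatives measured the 37 genes except the fit without suffixed probe sets, which measured 27. The lowest and highest medians were 1.05 and 1.28, 0.97 and 1.28, and 0.93 and 1.34. Genes that rose under every alternative that measured them numbered 20 of 29, 27 of 30 and 27 of 34. Leaving out 1 array at a time gave 24 to 29, 29 to 32 and 31 to 34. Without suffixed probe sets, which leaves 27 genes, 19 rose in WT and none differed for TIMP3-/- against WT or TIMP2-/- UUO, since Mx1 is then not measured. At most 2 genes fell in WT, 1 in TIMP2-/- and 0 in TIMP3-/- kidneys. One direction turned: Tap1 in TIMP3-/- kidneys was -0.06 as the mean of its probe sets, some of which read near the dim end.

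The genotype counts were less stable. The shares of all genes that passed under these alternatives are not given here. The counts therefore do not single out the listed genes. With array weights, 10 genes passed for TIMP2-/- against WT UUO, 17 for TIMP3-/- against WT UUO, 6 for TIMP3-/- against TIMP2-/- UUO, 4 and 7 in TIMP2-/- and TIMP3-/- sham, and 4, 11 and 1 for the differences of response of TIMP2-/- against WT, TIMP3-/- against WT and TIMP3-/- against TIMP2-/-. Without WT sham 3, WT UUO 2 and TIMP3-/- UUO 2, 5 passed for TIMP3-/- against WT UUO (Oasl2, Ubd, Mx1, Bst2 and Trim30a) and 2 against TIMP2-/- UUO (Mx1 and Ifitm2). With only the arrays compared, 0 passed in both. Leaving out 1 array at a time gave 1 to 6 for TIMP3-/- against WT UUO, 1 to 7 against TIMP2-/- UUO, 0 to 6 for the TIMP3-/- against WT response and 0 to 1 for the TIMP3-/- against TIMP2-/- response, with 0 in the other genotype comparisons; the highest counts against TIMP2-/- UUO and for both responses came without TIMP3-/- UUO 3. The cause was not tested. The array weight of TIMP3-/- UUO 3 was 0.326, against 0.346 for WT sham 3, 0.34 for WT UUO 2 and 0.258 for TIMP3-/- UUO 2. It was thus as discordant as arrays left out above, though kept there. With the replicate block the counts after UUO were 28, 30 and 34. With the arrays compared alone in a fit with the replicate block, an alternative added after seeing the data, 0 passed for TIMP3-/- against WT UUO and 3 against TIMP2-/- UUO (Mx1, Iigp1 and Trim30a); numbers in those groups do not pair the arrays. With 3 arrays a group and dim signals for Mx1 and sham Ubd, small differences could not be seen and sizes near the dim end are inexact.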
